A study of Medicago truncatula with 9 samples.

Results

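The predicted 24-nt miRNAs of Medicago truncatula seedlings were described here across alkali, salt and distilled water. They were chosen as the entries of the count table whose name lacks the prefix mtr-, which marks known M. truncatula miRNAs, and whose mature length is 24 nt. This gave 143 of 905 entries. The table held 684 known and 221 predicted entries, so 24 nt was the length of most predicted ones, while 108 of the known entries had this length. All libraries came from whole seedlings of genotype R108, 3 days old, that had been kept for 72 h in the solution of their condition. The conditions were alkali (AS, sodium carbonate with sodium bicarbonate, 5 mM), salt (SS, sodium chloride with sodium sulfate, 20 mM) and distilled water (DW), with 3 small RNA libraries each. The methods describe 1 dish per condition and do not say whether the 3 replicates came from separate dishes, so the p-values given here measure only the spread between these libraries.

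Most plant miRNAs are cut by DICER-LIKE1 from a folded single-stranded precursor, are shorter than 24 nt and act on messenger RNAs through ARGONAUTE1, which favours a U as the first base. The 24-nt size is that of the product of DICER-LIKE3. Most plant RNAs of this size are heterochromatic small interfering RNAs, which come from double-stranded RNA made with RNA polymerase IV and RNA-DEPENDENT RNA POLYMERASE2. They are bound by ARGONAUTE4 and its relatives, which favour an A as the first base, and guide DNA methylation at repeats and transposons. Some 24-nt RNAs are long miRNAs from a hairpin. A count table does not tell these origins apart, and the files give no target or role for any of the 143 entries.

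The count table holds no sequences. Mature sequences were found for 14 of the 143 entries, in the study's lists of miRNAs changed by the treatments, where predicted miRNAs carry a number instead of their name in the count table. The number was read as the position among the 221 predicted entries. At these positions all 33 numbered sequences had the length that the count table gives, against at most 17 of 33 when the positions were shifted by 1 to 20. The entry names consist of the word unconservative, a field from 1 to 8 or a scaffold, and a second number, and the leading word is left off here. The sequences of the members with the clearest changes, and of the pairs that share 1 sequence, are shown 5′ to 3′ with bases 2 to 8, the seed, in capitals.
1_31442: cGCUAGUUuuuggaagaguccucu
2_19893: gGAUGAUCuaugugauauaaacuu
3_38545: cUUGUAAAuaggaccggagggagu
5_11580: cGUUUUGAucuaaggcagcaacuu
2_22461: aUUGGAAAuuguacgguuaugacu
6_4678: gACAUUGUagugagaaacggacgu
5_11730 and 5_9223: cUUUGGUGagaucuucuuugacgu
3_40409 and 6_2992: aGAAACUCuuacuuggucacaaga

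The 14 entries held 12 distinct sequences with 12 distinct seeds, so no seed was shared by different sequences. The first base was A in 4, C in 4, G in 2 and U in 2 of the 12 sequences, and the last base was U in 10. The GC content was 29.2% to 50.0%, with a median of 41.7%. Since these sequences come from entries that had been listed for their change, they are not a sample of the whole class.

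The study's lists give a sequence for 134 of the 684 known entries, and only these known sequences were compared. Among them, a miRNA of the same length overlapped 1 member. Member 3_38545 shared a run of 19 bases, at its positions 5 to 23, with mtr-miR5281b. The shared bases are in capitals.
3_38545: cuugUAAAUAGGACCGGAGGGAGu
mtr-miR5281b: ucuuaUAAAUAGGACCGGAGGGAG
The run starts 1 base later in mtr-miR5281b, and mtr-miR5281c, mtr-miR5281d, mtr-miR5281e and mtr-miR5281f have the same mature sequence in the lists. Another member, 3_39470, was complementary over its first 15 bases to the predicted 23-nt entry 8_16064, whose first 15 bases are the reverse complement. These bases are in capitals.
3_39470: UAGUCCCUGAAUGCAgacuccguu
8_16064: UGCAUUCAGGGACUAaauugacu

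The deposited counts are whole reads per entry, and their sum per library was 3746957 to 7191272. These totals were 9.45 (DW1) to 19.9 (AS1) per 100 clean reads. Levels are given as CPM, counts per 1000000 of the library's total multiplied by its TMM factor. This scaling by the trimmed mean of log ratios is meant to set the bulk of the entries level between libraries. On this scale the median log2 fold change of all tested entries was still −0.17 for alkali against distilled water. The factors ran between 0.768 in AS1 and 1.35 in DW1, so these libraries were moved most by the scaling.

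Of the 143 members, 141 had a read in at least 1 library and 135 had reads in all 9 libraries. The number detected per library was 136 to 138, so detection did not separate the conditions. In each of the 9 libraries 56 members had over 100 reads. Only 2 members were at 0 everywhere, and a count of 0 allows up to 3 counts, 0.395 to 0.879 CPM depending on the library. edgeR's filter kept 132 members for testing. The 11 members left out had at most 14 counts in any library.

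The tested members were of low to moderate level, with a mean CPM over the 9 libraries of 2.04 to 834 and a median of 24.2. The median was 27.1 CPM for the tested known 24-nt miRNAs and 44.4 CPM for the tested predicted miRNAs of 20 to 22 nt. Of the 132 members, 32 averaged under 10 CPM and 30 over 100 CPM. With members of identical counts taken once, the 5 most abundant count profiles held 30.2% to 37.1% of the counts of the class in a library.

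**Figure D1:**
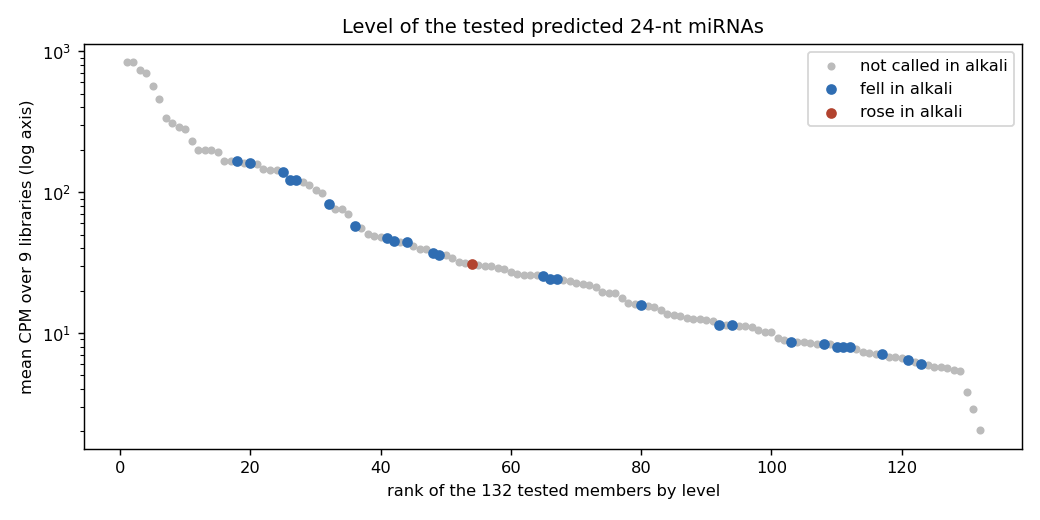
Mean CPM of the tested predicted 24-nt miRNAs over the 9 libraries, on a log axis, in order of abundance, with members called lower under alkali marked. The levels run from 834 CPM down to 2.04 CPM, and the called members have between 6.06 and 165 CPM.

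The most abundant member, 2_22379, had 723, 782 and 879 CPM in the alkali libraries. It had 807, 774 and 857 CPM in the salt libraries and 918, 933 and 828 CPM in the distilled water libraries. The highest alkali library lay above the lowest distilled water library, and the log2 fold change was −0.17 ± 0.16 (SE; edgeR adjusted p = 0.444) under alkali and −0.14 ± 0.16 (edgeR adjusted p = 0.642) under salt. Entry 7_27183 had exactly these counts in every library. The next members were 8_16939 with a mean of 732 CPM, 8_13554 with 695 CPM, 2_21525 with 567 CPM and 6_5638 with 461 CPM, followed by 7_23279 with 338 CPM, 5_11234 with 310 CPM and 2_18411 with 289 CPM. Members 4_47661, 7_28674 and 3_40967 averaged 280, 232 and 198 CPM. These 12 members had alkali log2 fold changes of −0.56 to −0.07, of which that of 7_28674 turned to 0.04 with the size factors of DESeq2 in edgeR, and none was called, where a call is an edgeR adjusted p under 0.05 together with more than a 1.5-fold change. Under alkali, 3 of the 12 had an unadjusted p under 0.05, and DESeq2 and limma-voom called none of them. Under salt 0 of the 12 had an unadjusted p under 0.05, and neither other tool called one. Member 5_11234 came nearest under alkali, with 213, 275 and 275 CPM, against 443, 392 and 286 CPM in distilled water. Its groups did not overlap, but its log2 fold change of −0.56 ± 0.19 (edgeR adjusted p = 0.0448) was under 1.5-fold.

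Some members cannot be told apart in these counts. There were 6 groups of 2 members, 12 members in all, that had identical counts in all 9 libraries, so the 141 detected members held 135 distinct count profiles. The pairs were 2_22379 with 7_27183, 3_42075 with 6_5353, 6_6807 with 6_6808, 2_19886 with 3_37678, 7_23883 with 7_23903, and 5_11730 with 5_9223. For the last pair the sequence is known and is the same. Member 3_40967 followed 3_42075 with a ratio of 0.997 to 1.001 in every library. A shared sequence did not always give identical counts, since 6_2992 had 1 to 8 more counts than 3_40409 in each of the 9 libraries although both have 1 sequence. Abundant members with different counts also ran in parallel. The count of 8_13554 was lower than that of 2_22379 in all 9 libraries, at 0.809 to 0.871 of it, and that of 2_18411 was 0.911 to 0.973 of 5_11234. These ratios are descriptions over 9 libraries that share depth and scaling.

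As a share of all counts, the class was smallest under alkali. The summed counts of the 143 members made up 0.668%, 0.859% and 0.998% of the alkali libraries, 1.06%, 0.949% and 1.12% of the salt libraries, and 1.77%, 1.45% and 1.10% of the distilled water libraries. Both members of each of the 6 pairs with identical counts entered these sums, the most abundant pair included. The mean was 0.842 ± 0.165% under alkali, 1.04 ± 0.0865% under salt and 1.44 ± 0.336% in distilled water (SD, n = 3 each). No alkali library reached the lowest distilled water library, and the ratio of means was 0.585 (exact two-sided permutation p = 0.1, the smallest that 3 against 3 libraries allow). Salt overlapped both other conditions (exact permutation p = 0.2 against distilled water and 0.2 for alkali against salt). Over the 21 tests of summed levels the Benjamini-Hochberg adjusted p of all those at 0.1 was 0.263, so none passed 0.05. Whole seedlings were sequenced, so fewer cells of a type and less RNA per cell cannot be told apart.

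**Figure D2:**
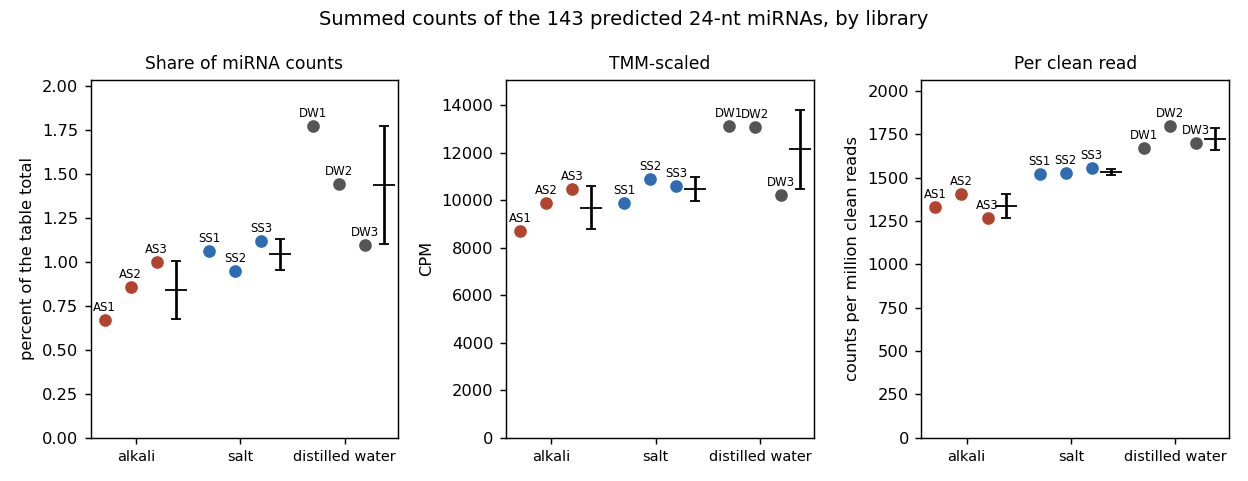
Summed level of the predicted 24-nt miRNAs in each library under alkali, salt and distilled water, as a percent of all counts, on the TMM scale and per 1000000 clean reads, with the mean and SD of each condition. The conditions do not overlap per 1000000 clean reads, while on the TMM scale DW3 lies among the stressed libraries.

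The size of the difference in summed level depended on the denominator. On the TMM scale the sum was 9692 ± 906 CPM under alkali, 10472 ± 508 CPM under salt and 12147 ± 1656 CPM in distilled water (SD, n = 3 each). There DW3, with 10235 CPM, lay among the stressed libraries, and the exact permutation p was 0.2 for alkali against distilled water, 0.3 for salt against distilled water and 0.2 for alkali against salt. Per 1000000 clean reads the sum was 1332, 1408 and 1268 in the alkali libraries, 1524, 1527 and 1555 in the salt libraries, and 1673, 1796 and 1702 in the distilled water libraries. On this scale no pair of conditions overlapped, each at the smallest exact permutation p of 0.1, with ratios of means of 0.775 for alkali against distilled water, 0.891 for salt against distilled water and 0.870 for alkali against salt.

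The known 24-nt miRNAs moved alongside. The ratio of predicted to known 24-nt counts within a library needs no scaling, and it was 2.24 ± 0.173 under alkali, 1.86 ± 0.242 under salt and 1.86 ± 0.271 in distilled water (SD, n = 3 each). These ratios overlapped in all pairs of conditions (exact permutation p = 0.2 for alkali against distilled water, 1.0 for salt against distilled water and 0.2 for alkali against salt). The ratio to the predicted miRNAs of 20 to 22 nt differed more. It averaged 0.279 under alkali, 0.319 under salt and 0.409 in distilled water, and alkali did not overlap distilled water (exact permutation p = 0.1, the smallest possible).

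Member by member, part of the class was lower under alkali. Against distilled water 26 of the 132 tested members fell and 1 rose (edgeR, adjusted p under 0.05 and over 1.5-fold), and the 26 held 25 distinct profiles. That is 19.7% of the members, while 8.50% of all 647 tested entries of the table fell and 8.66% rose. With DESeq2, 11 of 136 members (8.09%) fell, and 4.59% of the 740 entries it tested, so 15 of the 26 calls were lost with that tool. The median log2 fold change was −0.45 for the members and −0.17 for all tested entries, and 123 of the 132 members (93.2%) had a value below 0, against 57.7% of all tested entries. With the size factors of DESeq2 in edgeR these medians were −0.34 and −0.06. In 42 members every alkali library was below every distilled water library, and in 0 members above. Over all 647 tested entries the share wholly lower was 17.6%, and 110 entries were wholly higher. The count of 26 rested on single libraries. It was 5 without AS1, 5 without DW1, 5 without DW2 and 47 without DW3, and the members' median was −0.26 without DW1 and −0.28 without DW2. The median of all tested entries also moved towards 0 in these 2 fits, to −0.06 without DW1 and −0.08 without DW2.

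**Figure D3:**
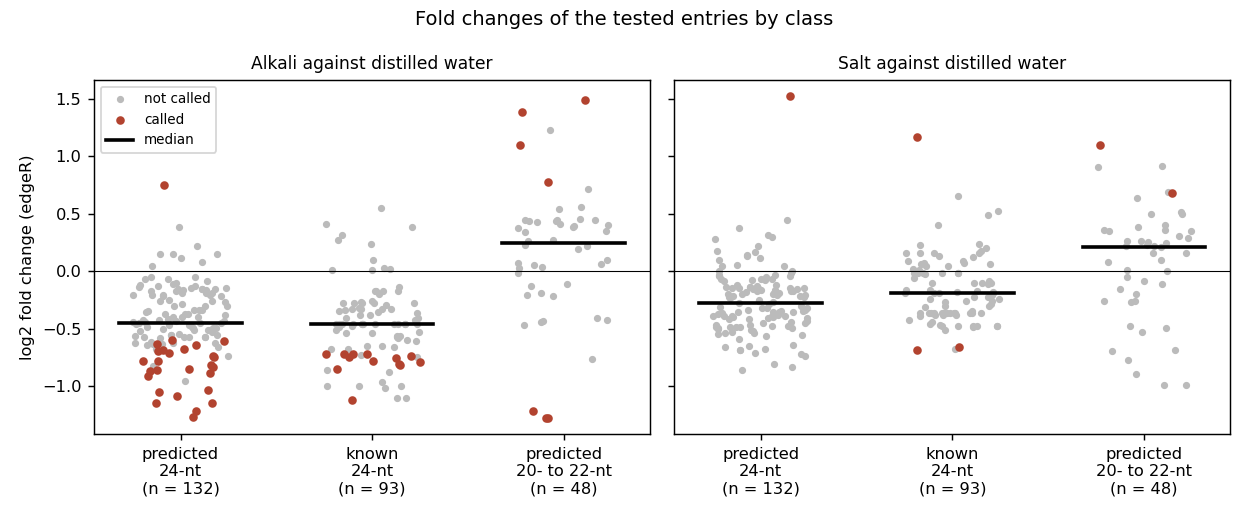
log2 fold changes from edgeR of all tested predicted 24-nt, known 24-nt and predicted 20- to 22-nt miRNAs, under alkali and under salt against distilled water; each point is 1 entry, called entries are coloured and bars are medians. The median alkali log2 fold change is −0.45, −0.46 and 0.25 in this order.

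Known miRNAs of the same length had a like median shift. Of 93 tested known 24-nt miRNAs, with 65 distinct profiles, 13 fell under alkali (edgeR), with 11 distinct profiles. The median log2 fold change of the 93 was −0.46. Of 48 tested predicted miRNAs of 20 to 22 nt, 4 rose and 3 fell, with a median of 0.25. The 12 predicted 23-nt entries, with 10 distinct profiles, lay with the 24-nt ones at a median of −0.63. Of these entries 4 fell, with 3 distinct profiles, and in 0 of them were the alkali and distilled water libraries without overlap. No test of the difference between these classes was made on fold changes.

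The members that fell lay below the most abundant ones. They averaged 6.06 to 165 CPM, with log2 fold changes of −1.27 to −0.60 and a median of −0.83. Among the most abundant, middle and least abundant 44 tested members, 10, 6 and 10 fell, and the median alkali log2 fold change was −0.36, −0.44 and −0.45. The fall was thus found at each level of abundance outside the 12 most abundant members. In 18 of the 26 the alkali and distilled water libraries did not overlap. In the 8 others DW3 was the lowest distilled water library each time. Among all tested entries, members included, 111 were called under alkali in either direction, and 93 of these calls were without overlap. For the known 24-nt miRNAs it was 13 of 13, with 11 distinct profiles. The calls of the members were thus less often separated than those of all tested entries.

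Only 2 members, 2_19893 and 3_38545, kept their fall in each of the 9 fits without 1 library and in each of the 10 other settings tried. The first was 2_19893, with 69.1, 110 and 100.2 CPM under alkali, 109, 144 and 132 CPM under salt, and 199, 241 and 140 CPM in distilled water. Its alkali libraries all lay below its distilled water libraries, while salt overlapped both. The alkali log2 fold change was −1.05 ± 0.21 (SE; edgeR adjusted p = 0.00117), and the salt value was −0.59 ± 0.21 (edgeR adjusted p = 0.0741).

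The second was 3_38545, the member that overlaps mtr-miR5281b in sequence. It had 76.5, 90.8 and 92.1 CPM under alkali, 145, 111 and 122 CPM under salt, and 169, 148 and 146 CPM in distilled water. The 3 conditions did not overlap, with alkali lowest and distilled water highest. The log2 fold change was −0.83 ± 0.17 (SE; edgeR adjusted p = 0.00148) under alkali and −0.29 ± 0.17 (edgeR adjusted p = 0.332) under salt. Known mtr-miR5281b, named after its values were seen, had 235, 269 and 304 CPM under alkali, 437, 338 and 393 CPM under salt, and 532, 400 and 400 CPM in distilled water. Its alkali log2 fold change was −0.72 ± 0.18 (edgeR adjusted p = 0.00863), and the count of 3_38545 was 0.303 to 0.370 of it in every library. With a shared run of 19 bases, how reads were divided between these 2 entries is not stated.

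**Figure D4:**
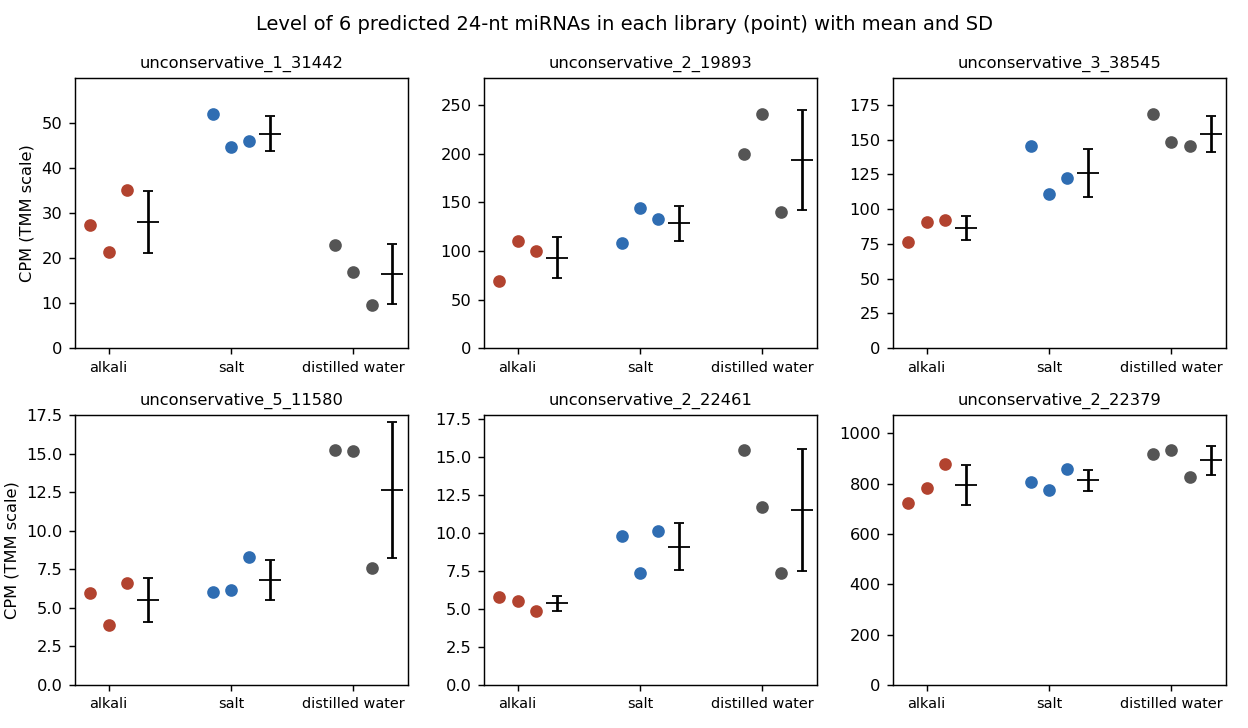
CPM in each library of 6 members named in the text, 1 panel each with its own linear axis from 0, with alkali, salt and distilled water from left to right and the mean and SD beside the points. Member 1_31442 is highest in the salt libraries (44.8 to 52.2 CPM), and 2_19893 and 3_38545 have every alkali library below every distilled water library.

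The other falls with the smallest adjusted p were mostly in rare members. Member 5_11580 had 5.98, 3.9 and 6.60 CPM under alkali, 5.99, 6.15 and 8.30 CPM under salt, and 15.2, 15.1 and 7.57 CPM in distilled water, with a log2 fold change of −1.22 ± 0.31 under alkali (SE; edgeR adjusted p = 0.00863). Member 2_22461 had 5.78, 5.50 and 4.82 CPM under alkali, 9.77, 7.33 and 10.1 CPM under salt, and 15.4, 11.7 and 7.37 CPM in distilled water (log2 fold change −1.09, edgeR adjusted p = 0.0129). In both, DW3 lay close to the salt libraries and well under the other distilled water libraries. The pair 5_11730 and 5_9223 differed in this, with 3.51, 6.74 and 4.57 CPM under alkali, against 10.9, 10.1 and 12.3 CPM in distilled water, where DW3 was the highest library (log2 fold change −1.15, edgeR adjusted p = 0.0198). Its call was lost without DW1 and without AS1. The largest log2 fold change, −1.27, belonged to 6_4678 at 2.06, 5.14 and 6.85 CPM under alkali, against 10.7, 16.1 and 6.96 CPM in distilled water (edgeR adjusted p = 0.0214). The highest alkali and the lowest distilled water library nearly met there.

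Among the other named members that fell, entry scaffold0040_1807 had 67.5, 67.2 and 62.4 CPM under alkali and 110, 125 and 83.5 CPM in distilled water, without overlap (log2 fold change −0.69, edgeR adjusted p = 0.0140). This call was lost with DESeq2 and without DW1 or DW2. Member 4_47657 had 107, 136 and 156 CPM under alkali and 294, 230 and 142 CPM in distilled water, so DW3 lay within the alkali range (log2 fold change −0.74, edgeR adjusted p = 0.0198). Members 5_10212 and 3_37579 overlapped in the same way through DW3, with log2 fold changes of −0.85 and −0.75. The calls of 4_47657, 5_10212 and 3_37579 held with DESeq2 but were lost without AS1, DW1 or DW2. Member 1_33108 had salt near the level of distilled water, with 14.6, 19.7 and 17 CPM under alkali, 27.5, 29.9 and 24 CPM under salt, and 25.5, 27.1 and 30.7 CPM in distilled water (alkali log2 fold change −0.69, edgeR adjusted p = 0.0218; salt log2 fold change −0.04, which turned to 0.02 with the size factors of DESeq2 in edgeR). Its alkali call was lost with DESeq2 (adjusted p = 0.0523) and without AS1, DW1, DW2 or DW3. Its direct comparison of alkali with salt gave −0.65 (edgeR adjusted p = 0.0929). Member 1_31374 had an alkali log2 fold change of −0.68 (edgeR adjusted p = 0.0250), with 26.6, 30.9 and 31.2 CPM under alkali, against 53.8, 53.7 and 34.8 CPM in distilled water. The call of 1_31374 was lost with DESeq2 and without AS1, DW1 or DW2.

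Member 3_39470, with a complementary sequence, and the pair 3_40409 and 6_2992, with a shared one, fell as well in edgeR. These calls were lost with DESeq2, while the pair 5_11730 and 5_9223 kept its call (DESeq2 adjusted p = 0.0405). Member 3_39470 had a log2 fold change of −0.82 under alkali (edgeR adjusted p = 0.0306), and the 23-nt entry 8_16064, complementary to it over 15 bases, had −0.75 (edgeR adjusted p = 0.0330). The mean over the 9 libraries was 11.4 CPM for 3_39470 and 26.8 CPM for 8_16064. The alkali and distilled water libraries of 8_16064 overlapped. Entries 3_40409 and 6_2992, with 1 sequence, had −0.89 (edgeR adjusted p = 0.0393) and −0.87 (edgeR adjusted p = 0.0332). The DESeq2 adjusted p was 0.0755 for 3_39470, 0.0981 for 3_40409 and 0.0903 for 6_2992. Their calls held in 7, 4 and 6 of the 9 fits without 1 library, in this order. The study's lists named these entries for their response, so their sequences show which RNAs changed and are not independent of the change.

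Under salt the same class hardly passed the test. Against distilled water 1 member rose and 0 fell of the 132, while 4.02% of all tested entries rose and 4.17% fell (edgeR). At an unadjusted p under 0.05, 24 of the 132 members were lower and 1 higher, while 71 of all 647 tested entries were lower, and DESeq2 and limma-voom called 0 lower. The median log2 fold change was −0.27 for the members and −0.06 for all tested entries, and 114 members (86.4%) had a value below 0, against 56.6% of all tested entries. In 12 of the 132 members all salt libraries lay below all distilled water libraries, and in 2 above. Of all 647 tested entries 84 lay wholly below and 72 wholly above, so the members were not more often separated than the table as a whole. The 26 members that fell under alkali had salt log2 fold changes of −0.86 to −0.04, with a median of −0.48, and the smallest adjusted p among them was 0.0573 (edgeR, 4_47657). The alkali and salt comparisons share their 3 distilled water libraries, so these values are not independent. The salt count moved with the libraries too, with 18 members that fell without DW3, 8 without AS1 and 4 without AS3.

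The member that rose was 1_31442. It had 52.2, 44.8 and 46.1 CPM under salt, against 22.9, 17 and 9.62 CPM in distilled water. Every salt library was above every other library, since the alkali libraries had 27.4, 21.5 and 35.3 CPM. The salt change was 2.88-fold (log2 fold change 1.53 ± 0.26, SE; edgeR adjusted p = 0.000641), and it stayed past the threshold in all 9 fits without 1 library (largest edgeR adjusted p = 0.00328) and in the 10 other settings. The same member was also the only one that rose under alkali, 1.69-fold (log2 fold change 0.75 ± 0.26, edgeR adjusted p = 0.0465). There the conditions overlapped, AS2 lying below DW1, and the call held in 3 of 9 fits without 1 library. It was lost without AS1, DW2, DW3 or any one of the salt libraries, with an edgeR adjusted p of at most 0.0809. In distilled water DW3, the lowest, had less than any other library. Directly compared, alkali was lower than salt by a log2 fold change of −0.77 ± 0.25 (edgeR adjusted p = 0.0970), which did not pass.

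Compared directly, alkali and salt gave no call for a member. Of the 132 members 0 were called, while 3.40% of all tested entries rose and 0.618% fell under alkali against salt (edgeR). At an unadjusted p under 0.05 there were 12 members, each lower under alkali, while 49 of all 647 tested entries were lower, and DESeq2 and limma-voom called 0. The smallest edgeR adjusted p was 0.0884, for 3_38545 with a log2 fold change of −0.55 ± 0.17. The median was −0.15 for the members and −0.06 for all tested entries, and 108 members (81.8%) had a value below 0, against 56.7% of all tested entries. In 17 members every alkali library was below every salt library, as in 10.2% of all tested entries. In 85 of 132 members (64.4%) the mean CPM was lowest under alkali, intermediate under salt and highest in distilled water, an order found in 34.8% of all tested entries and in 66.7% of the known 24-nt miRNAs. A call in alkali without one in salt therefore does not show that the 2 treatments differ.

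Single libraries stood apart in these members. AS1 was the lowest of the 9 libraries in 66 of 132 members (50.0%) and in 21.9% of the other tested entries, and DW2 was the highest in 51 members (38.6%) and in 4.85% of the other entries. Within distilled water, DW3 was the lowest library in 116 of 132 members, and this share was not taken for the other entries. Of all 9 libraries DW3 was the lowest in 15.2% of the members and in 3.50% of the other tested entries. The median coefficient of variation of the members was 16.6% under alkali, 14.9% under salt and 22.4% in distilled water, so the control libraries spread most. All tested entries had the same order, with 17.8%, 13.8% and 20.0%. In the known 24-nt miRNAs alkali spread most, with 22.9% against 12.4% under salt and 18.6% in distilled water. The part of the TMM factors of AS1 and DW1 in this was not tested.

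**Figure D5:**
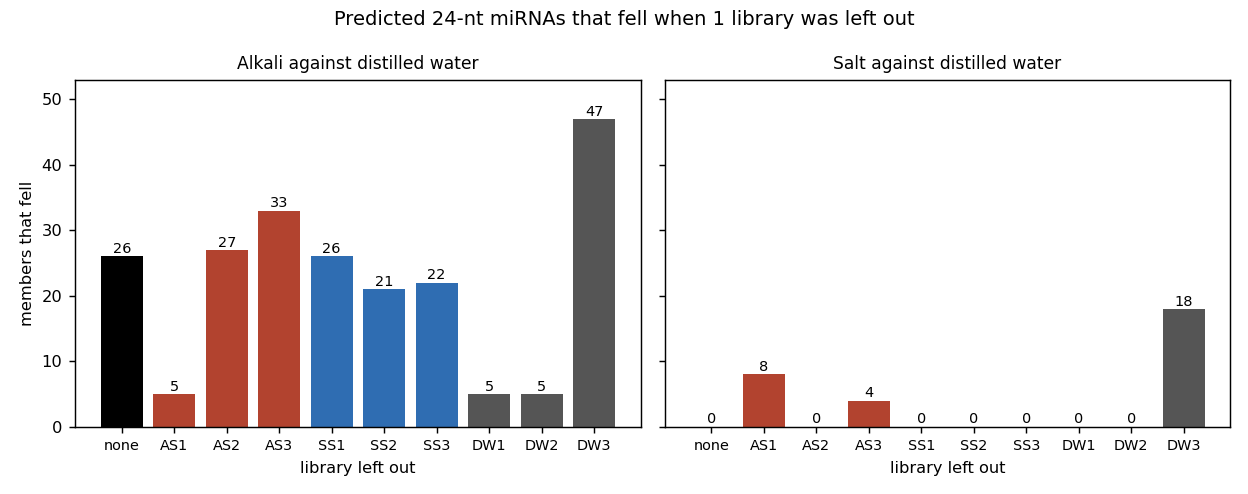
Number of predicted 24-nt miRNAs that fell in edgeR when each library was left out in turn, for alkali and for salt against distilled water, beside the number with all 9 libraries. The alkali count is 5 without AS1, DW1 or DW2 and 47 without DW3, against 26 with all libraries.

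The most variable members were rare. The coefficient of variation within alkali was highest for 1_30792, with 1.65, 4.26 and 6.85 CPM in the alkali libraries. Within salt it was highest for 5_8531, with 0.888, 3.22 and 1.45 CPM, and within distilled water for 4_45315, with 16.2, 11 and 4.50 CPM. In the first and the last of these AS1 or DW3 was again the low library, and none of the 3 was called.

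By the first field of the name, which the files do not explain, the members were spread over all 8 values, with 24 under 1, 18 under 2, 21 under 3, 16 under 4, 19 under 5, 16 under 6, 12 under 7, 14 under 8 and 3 on scaffolds. Those that fell under alkali came from every field, between 1 under 4 and 6 under 5.

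The miRNAs that act on the miRNA pathway itself, miR162 on DICER-LIKE1 and miR168 on ARGONAUTE1, were set beside the class together with miR1515, known in soybean for acting on a DICER-LIKE2 gene. Of 5 entries, all of miR162 or miR168, 4 were tested and 0 were called under alkali or salt (edgeR). Their median log2 fold change was 0.48 under alkali, with 3 at an unadjusted p under 0.05, and 0.31 under salt, with 0. Under alkali DESeq2, run without edgeR's filter, called 3 of the 5 and limma-voom 0. Under salt both called 0. No entry in the table reports on DICER-LIKE3 or RNA polymerase IV, so the pathway that makes 24-nt RNAs was not measured here.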

How the data were processed

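Small RNA libraries were made from whole R108 seedlings, 3 for each of 3 conditions. Per the labels and the methods, the authors trimmed reads, used Bowtie to discard other non-coding RNA, placed the remaining reads on the M. truncatula genome and counted reads per known or predicted miRNA. The predicted entries came from the authors' hairpin prediction. The deposited count values are whole, unnormalized reads. The deposited TPM values equal counts per 1000000 of the library's table total, within 4.86e-05, and were not used further. The deposited length column gave the 24-nt rule. How reads of identical or overlapping mature sequences were assigned is not stated. The authors tested with DESeq 1.10.1, whose results were not taken up. All count columns were matched to a library, and 0 were left over.

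Counts were fitted with edgeR 4.0.16 in R 4.3.3: filterByExpr with a minimum count of 10, TMM scaling, all 9 libraries by condition, robust quasi-likelihood tests and Benjamini-Hochberg adjustment over 647 entries. Calls were made at an adjusted p under 0.05 with more than a 1.5-fold change. Summed levels were compared by exact two-sided permutation tests over libraries. The procedure was tested on simulated counts.

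Named members were the 12 most abundant, up to 12 called per direction and comparison by smallest adjusted p, every member called in salt, the groups with identical counts or sequence, the most variable per condition, and those most like a known sequence. The members, the rule and the lists were chosen with earlier results of these data known. Alternatives were DESeq2 1.42.0, limma-voom (limma 3.58.1), other scalings and filters, the 2 groups alone, a replicate block, identical entries once, no fold threshold and each library left out. Leaving out DW1 and AS1 together was added after seeing the data. Sequences were copied from the study's lists of changed miRNAs, paired by number as described, and no genome was used.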

Additional observations from a re-analysis of the deposited data

How the results depend on the processing

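The number of predicted 24-nt miRNAs called under alkali against distilled water, 27 in edgeR, was 12 with DESeq2, 17 with only the 2 groups compared, 92 (all lower) with the table total as library size, and 5 to 47 with 1 library left out. All tested entries, members included, gave 111 calls in edgeR, 121 with DESeq2 and 127 with limma-voom. They gave 92 with only the 2 groups compared and 278 with the table total. With DESeq2 the calls of members thus went down while those of all tested entries went up. In the last 2 settings both moved in the same direction. The other counts in this paragraph are of members only. The table total alone shifts the median log2 fold change of all tested entries to −0.61 under alkali and −0.28 under salt, against −0.17 and −0.06. Leaving out DW1 and AS1 together, chosen after seeing the data, gave 5. Limma-voom gave 27. Under salt 1 member was called, and 8 with the table total, 2 with mapped reads as library size, 4 with no filter, 3 with at least 100 counts in 3 libraries, 8 with only the 2 groups compared, and 1 to 19 with 1 library left out. For alkali against salt 0 were called, and 1 each with the table total, clean or mapped reads as library size, no filter, only the 2 groups compared, or DW1 and AS1 left out, and 0 to 3 with 1 library left out. The cause of these shifts was not tested. The log2 ratio of predicted to known 24-nt counts, salt against distilled water, was −0.0033, ran between −0.10 and 0.12 with 1 library left out, and was above 0 at 0.12 without DW2, 0.084 without SS1 and 0.0049 without SS3, all within the spread of the libraries.

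The replicate numbers did not pair the libraries, since deviations of same-numbered libraries correlated between −0.60 and 0.38. With a replicate block 18 members were called under alkali, 1 under salt and 0 between alkali and salt. Among the named members, 50 alternative values for alkali lost a call, 24 gained one and 478 did neither. Over the 3 comparisons 71 values, of 18 results, turned sign, and 0 of these passed the threshold in either fit. Depth limits the rare members, since the 11 not tested had at most 14 counts in any library.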
